A study of Rattus norvegicus with 27 samples.

Results

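Voltage-gated calcium channels open when a neuron depolarises and let calcium in, and the alpha subunit forms the pore and the voltage sensor and sets the channel type. Cav1 (L-type) channels link activity to gene expression and pacemaking, Cav2 (P/Q-, N- and R-type) channels drive transmitter release, and Cav3 (T-type) channels open near rest and support rebound bursts, a firing pattern for which neurons of the deep cerebellar nuclei are known. In the cerebellum the P/Q-type subunit is best known from Purkinje and granule cells, and its mutations cause ataxia. The 8 alpha subunit genes described here (Cacna1a, Cacna1b, Cacna1c, Cacna1d, Cacna1e, Cacna1g, Cacna1h and Cacna1i) were taken by name from a gene count table of 17321 genes. All 8 were among the 12107 genes that passed the filter on low counts and were tested.

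The data were messenger RNA counts of interpositus nucleus punches from 27 Long-Evans rats killed at postnatal day 70, with 1 library per rat. NT rats were reared normally and received no treatment (5 females and 7 males), and LB rats were reared with limited bedding from postnatal day 2 to 9 (7 females and 8 males). In both treatments the litters had been cross-fostered and sex-balanced at postnatal day 2, and weaned rats were housed with cage mates of their own sex and treatment. The labels name no genetic change. The round punches measured 2 mm across, were taken over 3 consecutive sections of 1 mm and hold every cell type of the tissue, so that fewer cells of a type and less RNA per cell cannot be told apart in these values. Total counts ranged from 11836684 to 24169170 per animal.

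The labelled tissue was checked against marker genes. Gabra6, a granule cell gene, lay between 193 and 1268 CPM (counts scaled by TMM to the library size), and Pcp2, a Purkinje cell gene, between 358 and 2043 CPM. Slc17a6, the vesicular glutamate transporter of deep nucleus projection neurons, lay between 1.04 and 3.26 CPM in all 12 females and reached 380 CPM in NT males and 74.9 CPM in LB males. The mean level of 8 deep nucleus markers (a score in log2 units around the mean of all animals) ranged from -0.87 to -0.38 in females and from -0.95 to 3.48 in males, and the deep nucleus transcription factors Lhx9 and Meis2 did not exceed 3.48 CPM in any female. Of the other markers in females, the glycine transporter Slc6a5 lay at 13.3 to 42.9 CPM, Sncg at 2.97 to 17.3 CPM, the neurofilament genes Nefh and Nefm at 257 to 523 and 143 to 331 CPM, and Spp1 at 1.87 to 6.68 CPM. A score of 5 forebrain markers exceeded 1 in 5 animals, NT males replicates 3 and 6 and LB males replicates 2, 5 and 8. A score of motor neuron or choroid plexus markers exceeded 2 in NT males replicates 5 and 7. The Y-linked gene Eif2s3y had 516 to 1842 counts in males and 0 to 3 in females.

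The first question was which channel types dominated the punches. Levels were compared between genes only per length, as CPM per kb of exon. Cacna1a, the pore of P/Q-type channels, was by far the most abundant alpha subunit, at 58.7 ± 17.5 CPM per kb (SD, n = 27) and 49.1% ± 3.53 of the sum of the 8 levels per length. Cacna1g, the T-type subunit Cav3.1 behind rebound firing, followed at 20.6 ± 6.43 CPM per kb, or 17.7% ± 3.46 of the sum. The L-type subunit Cacna1d (9.94 ± 2.86 CPM per kb), the R-type subunit Cacna1e (9.18 ± 5.50), the N-type subunit Cacna1b (8.92 ± 2.23), the T-type subunit Cacna1i (6.01 ± 1.91) and the L-type subunit Cacna1c (4.65 ± 1.51) came next. Cacna1h, the T-type subunit Cav3.2, was lowest at 0.895 ± 0.937 CPM per kb. The retinal L-type subunit Cacna1f had at most 11 counts and the skeletal muscle subunit Cacna1s at most 9 counts in any animal, and neither passed the filter.

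The ends of this order held in every animal and its middle did not. Cacna1a lay above Cacna1g in 27 of 27 animals, with a mean ratio per length of 2.83. Cacna1g lay above Cacna1d in 27 of 27 animals at a mean ratio of 2.08, and Cacna1c lay above Cacna1h in 27 of 27 at a mean ratio of 7.31. Cacna1b lay above Cacna1i in 26 of 27 animals (mean log2 ratio 0.61 ± 0.41 SD). The neighbours Cacna1d and Cacna1e (mean log2 ratio 0.33 ± 0.69 SD), Cacna1e and Cacna1b (-0.19 ± 0.62) and Cacna1i and Cacna1c (0.37 ± 0.39) had mean ratios within 1 SD of the single animals, and the first of each pair lay above in 17, 11 and 22 of 27 animals. The place of Cacna1e depended on the group, since it lay above Cacna1b in 5 of 5 NT females and in 0 of 8 LB males.

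**Figure D1:**
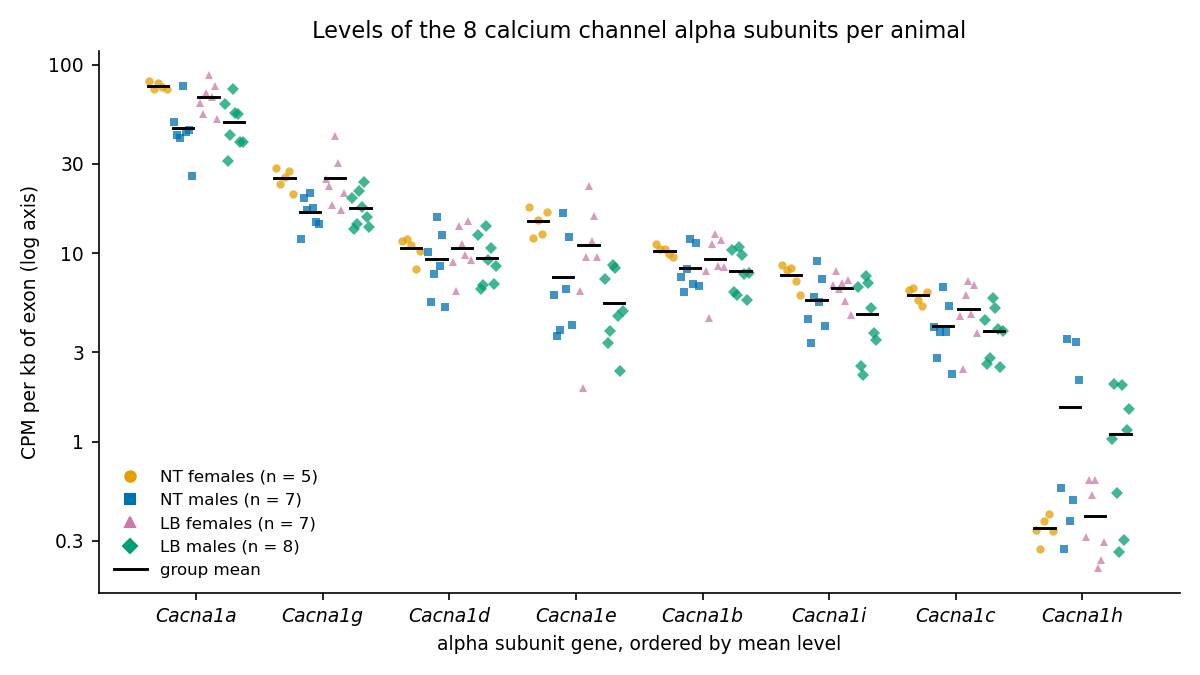
CPM per kb of exon (log axis) of the 8 alpha subunit genes, with 1 point per animal, coloured by group, and a black line at each group mean. Cacna1a lies above all other subunits in 27 of 27 animals, and Cacna1h is lowest and spreads from 0.214 to 3.53 CPM per kb.

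Summed by type, Cav2 subunits made up 64.0% ± 3.33 of the 8 levels per length (SD, n = 27), Cav3 subunits 23.7% ± 3.91 and Cav1 subunits 12.4% ± 1.91. The Cav2 share was 67.4% ± 1.42 in NT females, 62.0% ± 3.92 in NT males, 64.5% ± 2.92 in LB females and 63.0% ± 2.42 in LB males. The Cav1 share was 10.9% ± 1.21, 13.2% ± 2.03, 11.6% ± 2.28 and 13.2% ± 1.00 in the same order, and the Cav3 share 21.6% ± 1.82, 24.8% ± 5.14, 23.9% ± 5.04 and 23.7% ± 2.5. The ranges of the 4 groups overlapped for each type. The sum of the 8 levels was 152 ± 8.89 CPM per kb in NT females and 136 ± 30.1 in LB females, against 99.7 ± 29.6 in NT males and 100.04 ± 26.9 in LB males. These shares and sums are descriptions of chosen genes and were not tested.

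In the rat genome build rn6, used for the counts, the 8 genes lie on 7 chromosomes and span 57677 to 628094 bases. Cacna1a is on chromosome 19 (25526751 to 25749550, plus strand), Cacna1e on chromosome 13 (71907093 to 72367987, minus strand), and Cacna1c, the longest, on chromosome 4 (150641066 to 151269159, minus strand). Cacna1g (82129074 to 82197520) and Cacna1h (14730941 to 14788617) are both on the minus strand of chromosome 10. Counts were summed over exons, and the merged exon length ran from 6596 bases for Cacna1i to 9718 bases for Cacna1b. The exons of Cacna1h share 146 bases with Tpsg1 on the opposite strand, which had at most 1 count.

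Cacna1b, Cacna1c, Cacna1d and Cacna1e varied together over the animals (given further on), so the 250 bases before their starts are shown, from RefSeq on build GRCr8, 5′ to 3′ on the strand of the gene. Capitals mark GC boxes, searched as GGGCGG and its reverse complement CCGCCC, overlaps counted. The windows are chr3:27944286-27944535, chr4:154051749-154051998, chr16:5527550-5527799 and chr13:69444811-69445060, all on the minus strand.
Cacna1b: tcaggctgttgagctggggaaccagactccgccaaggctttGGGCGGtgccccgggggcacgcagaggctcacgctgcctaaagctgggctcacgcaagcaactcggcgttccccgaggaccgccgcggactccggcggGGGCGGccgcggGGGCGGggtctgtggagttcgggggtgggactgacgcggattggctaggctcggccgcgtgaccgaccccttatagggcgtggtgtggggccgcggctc
Cacna1c: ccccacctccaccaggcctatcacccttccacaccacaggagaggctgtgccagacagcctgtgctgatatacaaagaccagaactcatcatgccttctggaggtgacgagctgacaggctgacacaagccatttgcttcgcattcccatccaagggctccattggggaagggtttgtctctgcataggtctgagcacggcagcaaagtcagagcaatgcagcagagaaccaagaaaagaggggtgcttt
Cacna1d: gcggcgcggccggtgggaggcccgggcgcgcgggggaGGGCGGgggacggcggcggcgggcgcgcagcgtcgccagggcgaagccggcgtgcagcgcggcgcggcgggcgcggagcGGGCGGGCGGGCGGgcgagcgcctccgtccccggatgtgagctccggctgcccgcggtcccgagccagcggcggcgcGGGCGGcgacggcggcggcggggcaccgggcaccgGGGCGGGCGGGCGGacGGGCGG
Cacna1e: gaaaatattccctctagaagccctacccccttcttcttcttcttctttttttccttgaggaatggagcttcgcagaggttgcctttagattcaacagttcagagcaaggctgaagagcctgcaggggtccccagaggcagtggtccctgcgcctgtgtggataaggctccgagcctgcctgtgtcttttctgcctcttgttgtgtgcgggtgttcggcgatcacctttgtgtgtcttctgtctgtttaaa
Although their messages varied together, these 4 starts were unlike in sequence. Cacna1d had 9 GC boxes and 56 CG dinucleotides in 88.8% G and C, and Cacna1b had 3 boxes and 28 CG dinucleotides in 72% G and C. Cacna1c had 0 boxes and 3 CG dinucleotides in 54.4% G and C, and Cacna1e had 0 boxes and 6 CG dinucleotides in 51.2% G and C. Cacna1a varied with these 4 genes as well (rho from 0.71 to 0.88), and its start is not printed. It had 1 box and 34 CG dinucleotides in 76.8% G and C. Of 33469 rat promoters of the same length, 30.5% held at least 1 GC box, and the median held 5 CG dinucleotides. As many CG dinucleotides as in Cacna1d were found in 0.00598% of promoters, and as many as in Cacna1c in 71.4%. A match of letters is a description and not a site in use.

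The second question was whether the subunits differed between the sexes in normally reared rats. Cacna1a and Cacna1g were lower and Cacna1h was higher in NT males than in NT females, and the other 5 subunits did not pass the test. Of the 8 subunits 3 were called, 2 lower and 1 higher in males, where 15.2% of all genes tested were called, 5.08% lower and 10.1% higher (quasi-likelihood test of edgeR, Benjamini-Hochberg adjustment over 12107 genes, adjusted p under 0.05). The median log2 fold change of the 8 was -0.49, against 0.03 over all genes tested.

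Cacna1a had 731, 666, 713, 681 and 667 CPM in the 5 NT females, and its lowest, median and highest values in NT males were 229, 392 and 693 CPM. Of the 7 males, 6 lay below every female, and only replicate 4 reached the female range. The log2 fold change was -0.74 ± 0.20 (SE), a level 1.67-fold higher in females (adjusted p = 0.0204). Cacna1g had 220, 181, 197, 213 and 162 CPM in the NT females, and 92.3, 132 and 164 CPM as lowest, median and highest values in NT males. Again 6 of 7 males lay below every female, and the log2 fold change was -0.59 ± 0.19 (SE), 1.51-fold (adjusted p = 0.0359).

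Cacna1h went the other way and split the males. It had 2.68, 2.13, 3.00, 3.26 and 2.65 CPM in the 5 NT females, and 4.51, 2.13, 27.8, 3.01, 3.86, 26.6 and 16.8 CPM in NT males replicates 1 to 7. The values of replicates 3, 6 and 7 lay far above the rest and set the mean of 12.1 CPM, while replicates 2 and 4 lay within or below the female range. The log2 fold change was 2.14 ± 0.61 (SE), 4.40-fold (adjusted p = 0.0235). Replicates 3 and 6 also had the highest forebrain scores of the 27 animals, and replicate 7 had the highest motor neuron score, 3.56, and the highest deep nucleus score, 3.48. The 5 forebrain markers summed to 275 to 319 CPM in NT females and 190 to 617 CPM in NT males. Tbr1, a transcription factor and 1 of these markers, was at up to 163 CPM in males and at most 4.33 CPM in females. In NT females the forebrain score lay between -1.06 and -0.12 despite these sums, and Tbr1 made up little of them. The 5 motor neuron markers summed to at most 0.568 CPM in NT females, where Isl1 and Mnx1 were at 0, and to up to 206 CPM in NT males. Their part in the result was not tested. Without the 5 animals with a forebrain score above 1, the log2 fold change of Cacna1h was 1.13 and it was no longer called (adjusted p = 0.123), nor were Cacna1a (-0.68, adjusted p = 0.0503) and Cacna1g (-0.56, adjusted p = 0.0852). With 1 animal left out, Cacna1g was lost in 7 of 27 fits (adjusted p up to 0.0896; NT females replicates 1 to 4 and NT males replicates 1, 6 and 7), Cacna1h in 4 (adjusted p up to 0.0584; NT females replicates 1 to 4) and Cacna1a in 1 (adjusted p = 0.053; NT females replicate 1).

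The remaining 5 subunits did not pass the test. Cacna1e had 123, 84.2, 105, 88.3 and 116 CPM in the NT females and 25.5, 42.0 and 114 CPM as lowest, median and highest values in NT males. Of the 7 males 5 lay below every female, replicates 4 and 6 lay within the female range, and the log2 fold change of -0.97 ± 0.42 (SE) did not pass (adjusted p = 0.105). Without NT males replicate 4 it was -1.27 and passed (adjusted p = 0.0314). Cacna1c (-0.55 ± 0.25, adjusted p = 0.125), Cacna1i (-0.43 ± 0.26, adjusted p = 0.242), Cacna1b (-0.30 ± 0.21, adjusted p = 0.313) and Cacna1d (-0.19 ± 0.24, adjusted p = 0.611) had negative log2 fold changes that did not pass. Replicate 4 of the NT males had the highest Cacna1a, Cacna1b, Cacna1c, Cacna1d, Cacna1e, Cacna1g and Cacna1i of its group.

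**Figure D2:**
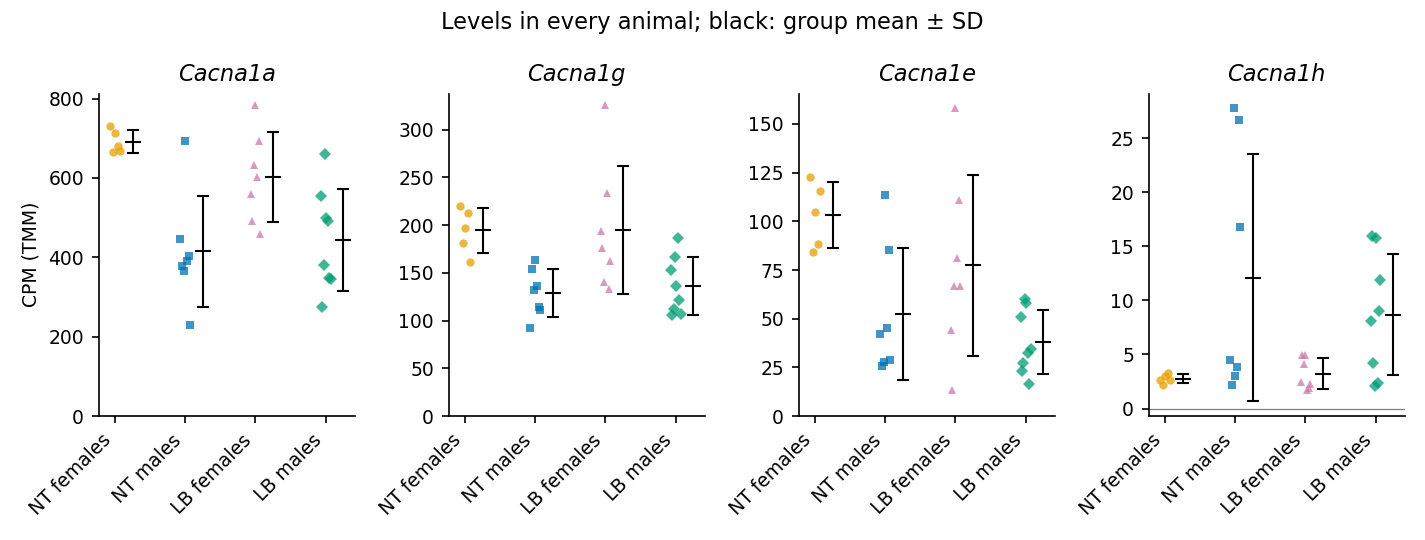
CPM of Cacna1a, Cacna1g, Cacna1e and Cacna1h in every animal by group, with the group mean ± SD in black beside the points and vertical axes that include 0. Cacna1a and Cacna1g lie lower in 6 of 7 NT males than in every NT female, and Cacna1h is high in a few males of each treatment.

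Granule cell markers moved with the same comparison. All 8 markers were detected in every group, their summed level ran from 6789 to 7738 CPM in NT females and from 2196 to 6551 CPM in NT males, and the granule score was 0.53 ± 0.05 (SD, n = 5) against -0.44 ± 0.56 (n = 7). With that score as a covariate the log2 fold change of Cacna1a was -0.07 (adjusted p = 0.957) and that of Cacna1h was -0.30 (adjusted p = 0.932). In that fit 0 of the 8 subunits and 3 of all 12107 genes were called. The scores of NT females (at least 0.46) and NT males (at most 0.24) did not overlap, so score and sex went together in NT rats. The fit relies there on the slope of the score within the 4 groups. In LB rats the scores overlapped, at -0.52 to 0.60 in females and -0.70 to 0.39 in males. The sample titles number the animals in 10 sets, each of 1 sex and treatment. With the set as a random block 0 of the 8 and 2 of all 12107 genes were called. So few genes were called in either fit that the loss was not particular to the 8 subunits. The main test treats animals of 1 set as independent, and none of its NT calls among the 8 subunits held with the block.

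In LB rats the signs were the same and no subunit passed. None of the 8 was called by edgeR's quasi-likelihood test, by DESeq2 or by limma-voom, where 0.248% of all genes were called by edgeR, and 4 of the 8 had an unadjusted p under 0.05 against 2053 of all 12107 genes. Cacna1a had 458, 602 and 785 CPM as lowest, median and highest values in LB females and 276, 435 and 661 CPM in LB males (log2 fold change -0.44 ± 0.18 SE, adjusted p = 0.211), and 4 of 8 males lay below every female. Cacna1g had 133, 176 and 326 CPM in LB females and 105, 129 and 186 CPM in LB males (-0.52 ± 0.17, adjusted p = 0.125). Cacna1e spread 11.7-fold among the LB females, from 13.5 CPM in replicate 2 to 158 CPM in replicate 4, and had 16.6 to 60.3 CPM in LB males (-1.03 ± 0.37, adjusted p = 0.169). Without LB females replicate 2 it passed, at -1.21 (adjusted p = 0.0357), in a fit that called 1059 of all genes in place of 30. This animal also had the lowest mean level of long transcripts of all animals (a score of -0.60, described further on). Within LB females Cacna1e followed that score with r = 0.99, and its part in the spread was not tested.

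Cacna1h had 1.68, 2.48 and 4.97 CPM as lowest, median and highest values in LB females and 2.06, 8.59 and 16 CPM in LB males. Its log2 fold change was 1.44 ± 0.52 SE (adjusted p = 0.163). In LB males 5 of 8 lay above every LB female, and the 3 highest, replicates 2, 5 and 8 at 16, 15.8 and 11.8 CPM, were the 3 LB males with a forebrain score above 1. The sex differences of the 2 treatments shared no animals, and the test of their difference (the interaction) called 0 of the 8 subunits and 0 of all genes tested by edgeR. Its log2 values ran from -0.70 ± 0.77 (SE) for Cacna1h to 0.30 ± 0.27 for Cacna1a, 0 of the 8 had an unadjusted p under 0.05 against 570 of all genes, and DESeq2 and limma-voom called 0 of all genes too.

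Averaged over both treatments, 5 subunits were called by sex, 4 lower and 1 higher in males, where 29.3% of all genes were called, 12.4% lower and 16.9% higher. Cacna1a (log2 fold change -0.59 ± 0.14 SE, adjusted p = 0.00355), Cacna1g (-0.56 ± 0.13, adjusted p = 0.0032), Cacna1e (-1.0 ± 0.28, adjusted p = 0.0109) and Cacna1c (-0.47 ± 0.17, adjusted p = 0.0367) were lower in males. Cacna1h was higher (1.79 ± 0.40, adjusted p = 0.00301), and 8 of 15 males lay above all 12 females. Cacna1i lay just outside the threshold (-0.44 ± 0.17, adjusted p = 0.0553), and Cacna1b (adjusted p = 0.164) and Cacna1d (adjusted p = 0.400) did not pass. Without the 5 animals with a high forebrain score 3 subunits were called and Cacna1h was not among them (0.91, adjusted p = 0.0549). With the granule score as a covariate 0 were called, and with the title set as a random block 2 were, Cacna1a and Cacna1g, where 1029 of all genes passed in place of 3546. Cacna1c was called in 4 of 14 alternative settings and in 15 of 27 fits with 1 animal left out (adjusted p up to 0.0839). The signs of the 8 fold changes were the same with library size alone or upper-quartile scaling in place of TMM in all 3 sex comparisons.

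**Figure D3:**
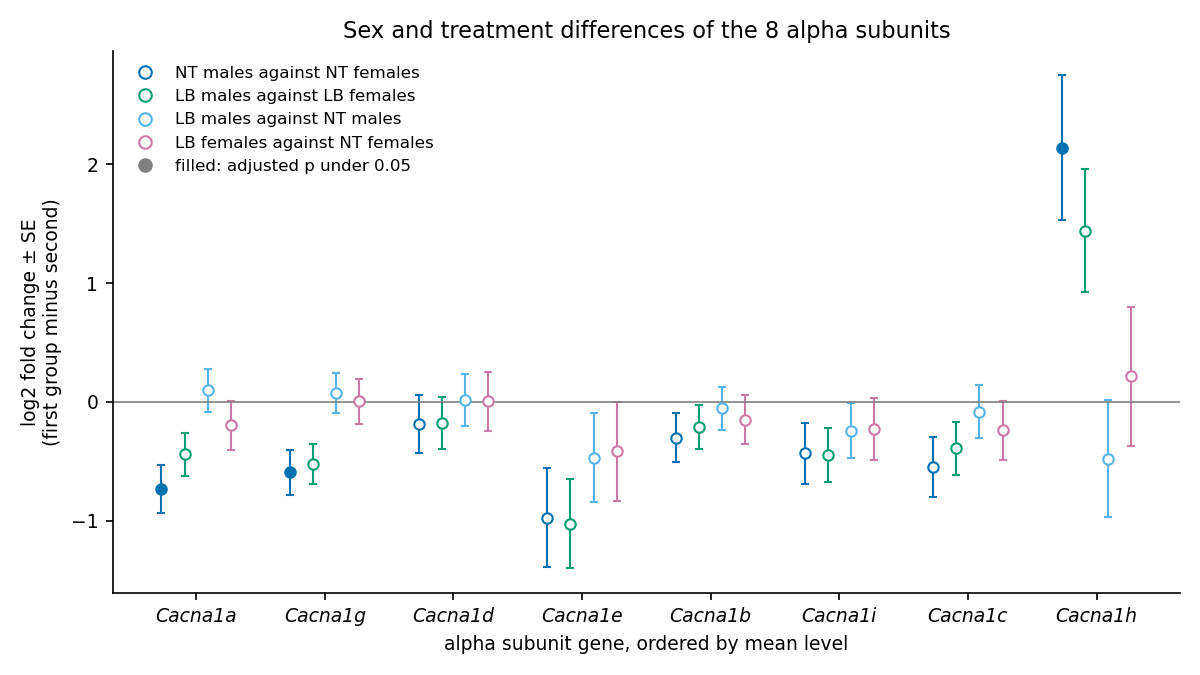
Log2 fold change ± SE of the 8 subunits (edgeR) in the sex comparisons within NT and LB rats and the treatment comparisons within males and females, with filled points where adjusted p was under 0.05. Filled points are Cacna1a, Cacna1g and Cacna1h in NT males against NT females, and every treatment point is open.

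The third question was whether limited bedding changed the subunits, and no difference was detectable at this spread. Among males 0 of the 8 were called by edgeR, DESeq2 or limma-voom and 0 had an unadjusted p under 0.05, where 0% of all genes were called by edgeR, 3 genes by DESeq2, 0 by limma-voom and 1211 had an unadjusted p under 0.05. Log2 fold changes of LB against NT males ran from -0.48 ± 0.49 (SE) for Cacna1h to 0.10 ± 0.18 for Cacna1a. Among females 0 of the 8 were called by the same 3 tools and 0 had an unadjusted p under 0.05, where 0.00826% of all genes were called. The values ran from -0.42 ± 0.42 for Cacna1e to 0.22 ± 0.59 for Cacna1h. The approximate 95% interval (normal, from the SE) for Cacna1a was -0.60 to 0.20 in females and that for Cacna1g -0.37 to 0.38. A change of Cacna1g by more than 0.38 on the log2 scale in females lay outside that approximate interval.

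Over both sexes 0 of the 8 were called by any of the 3 tools, with 0.00826% of all genes called by edgeR, and the log2 fold changes ran from -0.44 ± 0.28 for Cacna1e to 0.04 ± 0.13 for Cacna1g. The highest over the lowest value was larger in the 7 LB females than in the 5 NT females for each of the 8 subunits, from 1.71-fold for Cacna1a and Cacna1i to 11.7-fold for Cacna1e in LB females, against 1.10-fold for Cacna1a to 1.53-fold for Cacna1h in NT females. LB females replicate 4 had the highest Cacna1a, Cacna1b, Cacna1c, Cacna1e and Cacna1g of the group. The treatment comparisons share animals with the sex comparisons and are not independent of them.

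Most subunits rose and fell together over the animals, while Cacna1h had a negative rho with every other subunit. Over the 28 pairs, Spearman's rho of log2(CPM + 0.5) over 27 animals had an adjusted p under 0.05 in 22, of which 20 were positive and 2 negative (permutation test, 100000 resamples, Benjamini-Hochberg over 28 pairs). Without Cacna1h, 20 of 21 pairs passed. The permutations shuffled animals across the groups, so these p-values also take in differences between group means. The 2 negative pairs that passed were Cacna1h with Cacna1a and with Cacna1g. After centring on group means, Cacna1g had r of only 0.28, 0.30, 0.15 and 0.31 with Cacna1b, Cacna1c, Cacna1d and Cacna1e. Centred in the same way, Cacna1h had r of -0.45 with Cacna1a, -0.28 with Cacna1g and -0.23 with Cacna1d. Its centred r was -0.16 with Cacna1c, -0.14 with Cacna1e, -0.0035 with Cacna1b and 0.0044 with Cacna1i. The N-type subunit Cacna1b and the L-type subunit Cacna1c were closest, with Pearson's r = 0.93 and rho = 0.92 (permutation p = 1e-05 for both, the smallest that 100000 resamples can give, adjusted p = 3.5e-05 for r and 3.11e-05 for rho), r = 0.93 without the 2 animals farthest from the median of Cacna1b and r = 0.93 after centring on group means. Cacna1b with Cacna1e (rho = 0.88), Cacna1c with Cacna1e (0.90), Cacna1b with Cacna1d (0.87), Cacna1c with Cacna1d (0.85) and Cacna1a with Cacna1c (0.88) were nearly as close.

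Cacna1g followed Cacna1a (r = 0.73, permutation p = 5e-05, adjusted p = 0.000108; rho = 0.76, permutation p = 2e-05, adjusted p = 5.09e-05), with r = 0.70 without the 2 farthest animals and r = 0.52 after centring on group means. Its rho with Cacna1d was 0.31 (permutation p = 0.122, adjusted p = 0.132). Cacna1h was lower where Cacna1a was higher (r = -0.65, permutation p = 0.000500, adjusted p = 0.000824; rho = -0.53, permutation p = 0.00484, adjusted p = 0.00678), with r = -0.54 without the 2 farthest animals and -0.45 after centring on group means. Within groups this r was -0.49 in NT males, -0.59 in LB males and 0.13 in LB females. Cacna1i kept r values of 0.92 and 0.89 with Cacna1b in NT and LB males, against -0.21 in LB females.

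**Figure D4:**
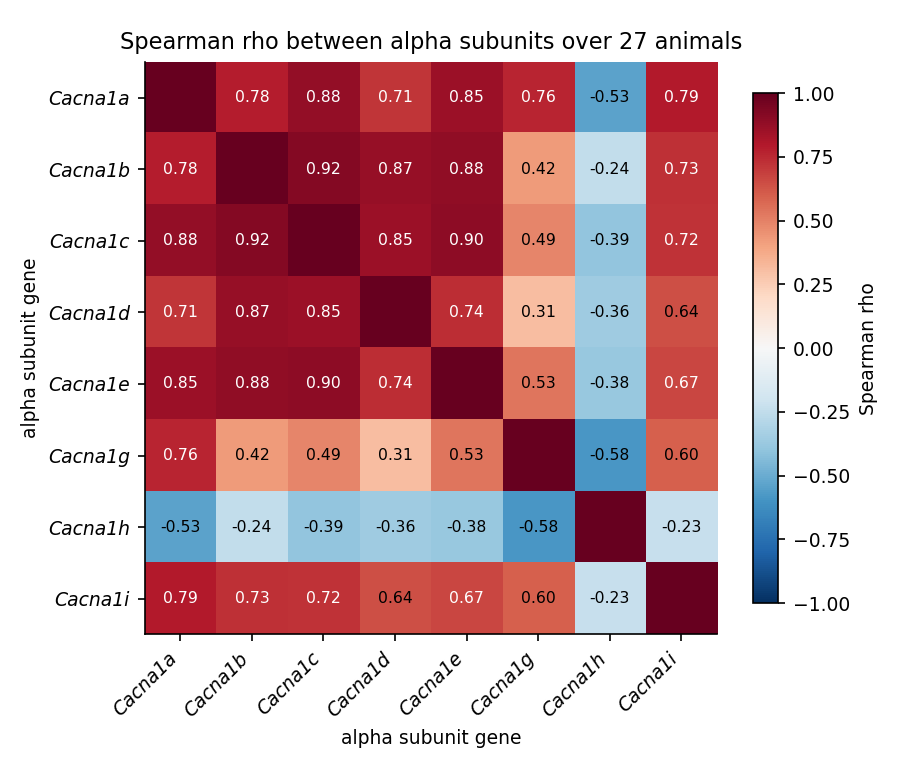
Spearman's rho between the 8 subunits over 27 animals, 1 square per pair, coloured from -1 (blue) to 1 (red). The block of Cacna1a to Cacna1e is red throughout, from 0.71 to 0.92, and every square of Cacna1h is negative. Of the Cacna1h squares only those with Cacna1a and Cacna1g had an adjusted p under 0.05 (permutation test).

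The 8 subunits also moved with cell type marker scores, in a family of 112 relations of 8 subunits with 14 scores. Cacna1a rose with the granule score (r = 0.85, rho = 0.85, permutation p = 1e-05 for both, adjusted p = 0.000124 for rho), with r = 0.81 without the 2 farthest animals, 0.75 after centring on group means, and 0.71, 0.69 and 0.90 within NT males, LB females and LB males. It was lower where the microglia score was higher to the same degree (r = -0.87, rho = -0.85, permutation p = 1e-05 for both, adjusted p = 0.000124 for rho; r = -0.82 without the 2 farthest animals and -0.77 after centring), and likewise with the motor neuron score (rho = -0.79, adjusted p = 0.000124). Cacna1g rose with the Purkinje score (rho = 0.78, adjusted p = 0.000187; r = 0.75, 0.76 without the 2 farthest animals and 0.58 after centring) and with the granule score (rho = 0.78, adjusted p = 0.000124). It was lower where the motor neuron score (rho = -0.81, adjusted p = 0.000124) and the deep nucleus score (rho = -0.75, adjusted p = 0.000187; r = -0.59, -0.53 without the 2 farthest animals and -0.38 after centring) were higher. Cacna1e followed the mean level of 435 other genes with exons of at least 6596 bases (rho = 0.90, adjusted p = 0.000124; r = 0.89, 0.87 after centring). So did Cacna1b (rho = 0.80), Cacna1c (0.78), Cacna1a (0.70), Cacna1d (0.64) and Cacna1i (0.61), with adjusted p of at most 0.00278. Cacna1g (0.40, adjusted p = 0.0641) and Cacna1h (-0.28, adjusted p = 0.186) did not pass. The part of this score, or of RNA integrity, in the relations among the subunits was not tested. Other scores had higher means in males as well. The microglia score was -0.38 ± 0.14 in NT females, 0.24 ± 0.39 in NT males, -0.17 ± 0.31 in LB females and 0.17 ± 0.33 in LB males (SD). The oligodendrocyte score was -0.73 ± 0.25, 0.44 ± 0.78, -0.10 ± 0.49 and 0.16 ± 0.47, and the meningeal score -0.19 ± 0.22, 0.27 ± 0.22, -0.48 ± 0.19 and 0.30 ± 0.22, in the same order. The meningeal score of the LB females, at most -0.18, did not overlap that of the LB males, at least 0.02. No pooled coefficient is given for Cacna1h and the forebrain score, since 5 animals stood apart, with 11.8 to 27.8 CPM of Cacna1h at scores above 1. Among the other 22 animals only NT males replicate 7 exceeded 10 CPM. The forebrain score was not alone in this. Cacna1h also rose with the deep nucleus (rho = 0.74, r = 0.41 after centring), oligodendrocyte precursor (0.73, r = 0.70) and motor neuron scores (0.65, r = 0.52). It was lower where the granule (rho = -0.72, r = -0.75 after centring) and Purkinje scores (-0.72, r = -0.72) were higher. The adjusted p of these rho values was at most 0.00157. The part of tissue makeup in the sex differences was not tested.

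**Figure D5:**
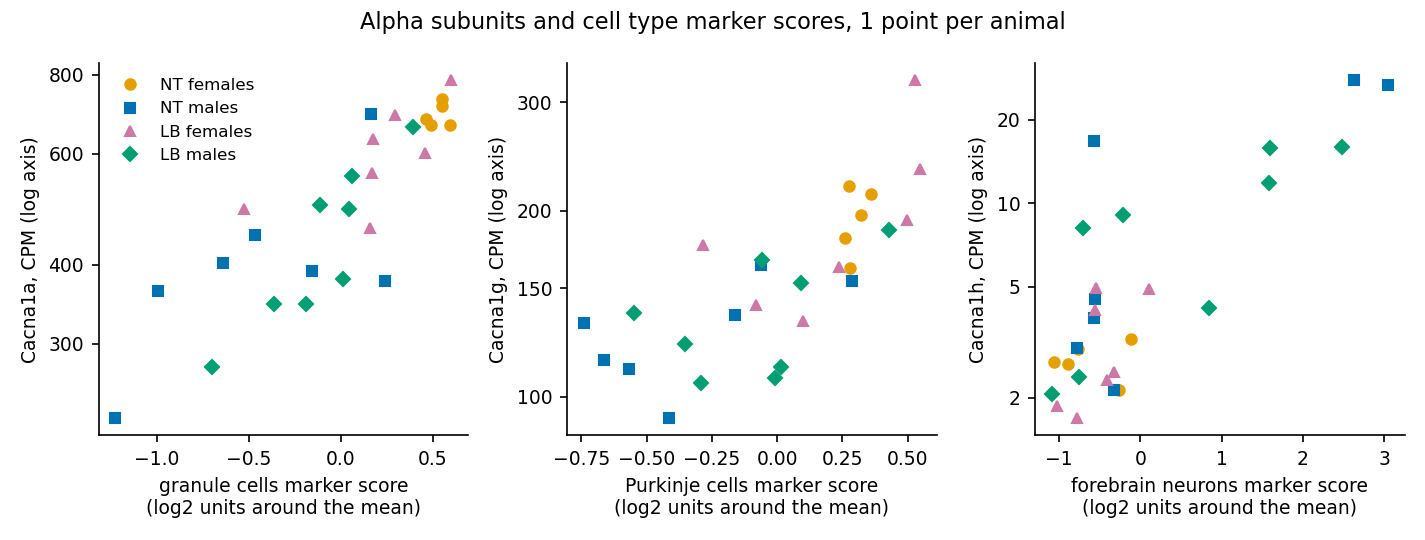
CPM (log axis) of Cacna1a against the granule score, of Cacna1g against the Purkinje score and of Cacna1h against the forebrain score, 1 point per animal, with shapes and colours for the 4 groups. Cacna1a rises along the granule score, and 5 males with a forebrain score above 1 hold 5 of the 6 highest Cacna1h values.

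Among all 12107 genes tested, the pattern most like that of each subunit over 27 animals was found by rho, as a description. For Cacna1a these were Kdm6b (0.96), a histone demethylase, and Zfp282 (0.95), and for Cacna1b and Cacna1e they included Scn8a (0.94 and 0.96), the sodium channel Nav1.6. Nav2 was second for Cacna1b (0.92) and first for Cacna1c (0.96), where Ing5 was second (0.96), and Rbm33 (0.97) was first for Cacna1e. Cacna1d was closest to Plekha5 (0.92) and Srrm1 (0.90), Cacna1g to Dab2ip (0.92) and Mbtps1 (0.92), and Cacna1i to Dopey2 (0.89) and Rexo1 (0.87). Cacna1h stood apart, closest to Mast3 (0.91) and to Nr2e1 (0.90), a nuclear receptor of forebrain progenitors. Cacna1e had 92 genes with a rho over 0.9, Cacna1a 74, Cacna1c 36, Cacna1b 12 and Cacna1i 0.

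Alpha subunits work with alpha2delta, beta and gamma partners, and 13 of the 16 auxiliary genes in the table were tested. Per length, Cacng2 (stargazin, 129 ± 19.4 CPM per kb, SD, n = 27) and Cacng7 (115 ± 29.3) were the most abundant, both better known as AMPA receptor partners, and among beta subunits Cacnb3 (67.9 ± 13.3) lay above Cacnb4 (33.9 ± 19.7). The alpha2delta subunits Cacna2d2, Cacna2d3 and Cacna2d1 had 16.5, 15.5 and 12.5 CPM per kb. Cacna2d4, Cacng1 and Cacng6 had at most 12 counts and were not tested.

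In NT rats 1 of the 13 was higher and 1 lower in males, with a median log2 fold change of 0.03, where 10.1% of all genes were higher and 5.08% lower. Cacng3, an AMPA receptor partner of forebrain neurons, had a mean of 28 CPM in males and 5.53 in females (2.34 ± 0.77 SE, adjusted p = 0.0406), and 3 of 7 males lay above and 3 of 7 below every female. Cacng7 was lower in males (-0.54 ± 0.18, adjusted p = 0.0412). Averaged over both treatments 3 of 13 were higher in males (Cacng3, Cacng8 and Cacnb1) and 4 lower (Cacnb4, Cacng5, Cacna2d2 and Cacng7), where 16.9% of all genes were higher and 12.4% lower. Cacnb4, the beta subunit that partners Cacna1a in the cerebellum, had mean levels of 89.3 CPM in males and 178 CPM in females (-1.01 ± 0.31, adjusted p = 0.0172). Cacna2d2, whose loss causes ataxia in mice, had 43.8 CPM in males and 75.1 CPM in females (-0.79 ± 0.18, adjusted p = 0.0037). In LB rats alone and in each treatment comparison 0 of the 13 were called by edgeR, with 6 of 13 at an unadjusted p under 0.05 in the LB sex comparison, against 2053 of all 12107 genes.

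Calcium that enters is joined by release from internal stores and cleared by pumps and exchangers. Of 14 such genes tested, 6 were lower and 0 higher in NT males than NT females, with a median log2 fold change of -0.36, where 5.08% of all genes were lower and 10.1% higher. With the title set as a random block 2 of all 12107 genes were called, so that at least 4 of the 6 calls were lost. The 5 with the largest differences were the IP3 receptor Itpr1 (-0.95 ± 0.32 SE, adjusted p = 0.0458), which is also 1 of the Purkinje markers, the exchangers Slc8a2 (-0.87 ± 0.22, adjusted p = 0.0147) and Slc8a1 (-0.51 ± 0.14, adjusted p = 0.0221), and the pumps Atp2a3 (-0.78 ± 0.21, adjusted p = 0.0181) and Atp2b3 (-0.65 ± 0.17, adjusted p = 0.0153). All 7 NT males lay below every NT female for Itpr1, Slc8a2 and Atp2b3. Averaged over treatments 8 of 14 were lower, Ryr2 among them, and 0 higher, where 12.4% of all genes were lower and 16.9% higher. In LB rats 0 of 14 were called by edgeR, with 4 at an unadjusted p under 0.05 against 2053 of all 12107 genes, and in the treatment comparisons 0 were called.

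Calcium-activated potassium channels are opened by the calcium that these channels admit and end a burst. Of 7 subunits tested, Kcnn4 alone was called in NT rats, where 10.1% of all genes were higher and 5.08% lower in males. Its mean levels were 0.618 CPM in males and 0.249 CPM in females (1.30 ± 0.39 SE, adjusted p = 0.0279). Both levels are low, so few counts lie behind this call. Averaged over treatments Kcnn4 was higher (0.94 ± 0.25, adjusted p = 0.00835) and Kcnma1, the BK channel pore, lower in males (-0.53 ± 0.19, adjusted p = 0.0383). Of all genes 16.9% were higher and 12.4% lower there, so these counts lie near the shares over all genes. In LB rats and in the treatment comparisons 0 of the 7 were called by edgeR, with 1 of 7 at an unadjusted p under 0.05 in the LB sex comparison, against 2053 of all 12107 genes.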

How the data were processed

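The authors deposited 1 table of raw counts per gene for the 27 animals. Per the labels, libraries were made with the KAPA mRNA HyperPrep kit, and the submitters' processing notes name STAR 2.5.2b, Subread 1.5.1 with featureCounts, and build rn6; strand setting, annotation release and treatment of multi-mapping reads are not given in the sources used here. The study left out samples of low RNA integrity. Groups came from the sex and treatment labels.

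Genes were filtered with filterByExpr (minimum count 10, minimum total 15), scaled by TMM and fitted in 1 model of 4 groups with edgeR 4.0.16 (R 4.3.3, quasi-likelihood, robust, two-sided), with Benjamini-Hochberg adjustment over 12107 genes and a threshold of 0.05. Alternatives used DESeq2 1.42.0, limma 3.58.1 and sva 3.50.0. Scores and correlations used log2(CPM + 0.5). The fit was tested on simulated data. The rule for naming took all 8 subunits, each called gene of 3 lists (auxiliary subunits, calcium-activated potassium channels, calcium release and extrusion) up to 5 per direction, and the 2 genes of highest rho per subunit. The members and lists were chosen with earlier results of these data known. The labels do not say whether animals shared a litter. Promoters of 5 of the 8 genes were found in the RefSeq table (GRCr8). The SE of each log2 fold change was derived from that value and the F statistic of its test. Intervals are normal ones built on these SEs, so they are somewhat narrow, and they cover only the spread between animals.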

Additional observations from a re-analysis of the deposited data

How the results depend on the processing

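The count of subunits called in NT males against NT females, 3 of 8, fell to 0 with title sets as a random block (limma-voom), 0 with the composition covariate (deep nucleus minus granule score), 0 with the granule score as a covariate, 0 without the 5 animals of high forebrain score, 1 with the forebrain score as a covariate and 1 without the 2 animals of high motor neuron or choroid plexus score. Taken singly, Cacna1a was called in 10 of 15 alternative settings in this comparison, Cacna1g in 8 and Cacna1h in 8. Leaving out each animal in turn gave a count of 0 to 4, with 0 without NT females replicate 1 and 1 without NT females replicate 2, 3 or 4. In LB rats leaving out 1 animal gave 0 to 1. Over both treatments the count of 5 fell to 2 with the block, to 0 with the composition covariate and with the granule score, and to 3 without the animals of high forebrain score and with the mean level of long transcripts as a covariate; leaving out 1 animal gave 4 to 6. The cause was not tested. The granule, forebrain and long transcript covariates and both sets of left-out animals were chosen after seeing the data.

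Signs changed only in values that were not called, apart from Cacna1h and Cacna1c below. In NT rats the log2 fold change by sex was 0.29 (composition covariate), 0.044 (2 surrogate variables), 0.46 (granule score) and 0.029 (long transcripts) for Cacna1d, and with the granule score 0.19 for Cacna1b, 0.19 for Cacna1c, 0.32 for Cacna1e and -0.30 for Cacna1h. In LB rats it was 0.0099 (granule score) and 0.0037 (long transcripts) for Cacna1d and 0.013 (long transcripts) for Cacna1b. Over both treatments it was 0.14 (composition), 0.0042 (surrogate variables), 0.23 (granule score) and 0.017 (long transcripts) for Cacna1d, and with the granule score 0.071 for Cacna1b and 0.020 for Cacna1c. Of the treatment values, Cacna1a in males became -0.093 (composition), -0.15 (granule score), -0.041 (without the 2 animals of high motor neuron or choroid plexus score) and ran from -0.0064 to 0.24 with 1 animal left out. Cacna1h became 0.12 (surrogate variables) and 0.50 (granule score) in males, and -0.075 (composition) and -0.41 (granule score) in females. Cacna1g over both sexes became -0.0035 (library size alone) and -0.0009 (composition) and ran from -0.058 to 0.079 with 1 animal left out. The interaction became -0.18 for Cacna1a and 0.91 for Cacna1h (granule score) and 0.045 for Cacna1h (surrogate variables).

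No paired analysis was possible because the labels number no animals across groups. The length of coding sequence was not run as another scale, since no protein table was used here. Ordered by the mean percent of the 8 levels per length, which no scaling between animals changes, Cacna1b (7.66%) took place 4 and Cacna1e (7.19%) place 5. With library size alone 23 of 28 pairs passed in place of 22. Of all genes tested, the count called in NT rats by sex was 1840, against 2 with the block, 3 with the composition covariate or granule score, 602 without the 2 animals of high motor neuron or choroid plexus score and 3153 with surrogate variables. In LB rats it was 30, against 408 by DESeq2 and 1059 without LB females replicate 2, and over both sexes the count called by treatment was 1, against 330 without LB females replicate 4. Cacna1h, at 31 to 500 counts, had the least depth of the 8 subunits.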
